A study of Macaca mulatta with 30 samples.

Results

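The genes described here mark the path from neural stem cell to neuron in the fetal hippocampus. They were taken by gene symbol from a list of 10 genes, NES, EOMES, NEUROG2, NEUROD1, NEUROD2, NEUROD6, PROX1, TBR1, DCX and SOX11. Of these, 9 were matched to a row of the hippocampus count table, which holds 32386 Ensembl genes. EOMES, the marker of intermediate progenitors, was not matched and was not analysed here. All 9 matched genes reached the minimum of 7 reads in 5 libraries and were tested, with 17390 genes tested in all. NEUROG2 was counted least, with 27 to 135 reads per library, and each of the other 8 had at least 205 reads in every library.

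Excitatory neurons of the hippocampus arise from radial glia, the neural stem cells of the fetal brain. Radial glia give rise to intermediate progenitors, these become migrating neuroblasts, and the neuroblasts mature into pyramidal neurons of the CA fields or into granule neurons of the dentate gyrus, where neurogenesis lasts longest. A relay of transcription factors marks these steps, from the proneural factor NEUROG2 through the NEUROD factors to PROX1 in granule neurons, and glucocorticoids are known to act on the division and maturation of neural progenitors.

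Pregnant rhesus macaques received a single intramuscular injection and were delivered 5 days later, and RNA was sequenced from the hippocampus of 15 fetuses. Each group held 5 animals, namely saline controls (libraries named CTL), animals given Beta-Ac, which is betamethasone acetate alone (BAC), and animals given the clinical drug Celestone, a mixture of betamethasone phosphate and acetate (CEL). By these names the dose was 0.125 mg/kg for Beta-Ac and 0.25 mg/kg for the clinical drug. The treatment and dose fields of the hippocampus libraries state the reverse, whereas the lung labels of the 6 drug-treated animals sampled in both tissues follow the names. Groups here follow the names, and under the fields BAC and CEL would exchange their drugs. Gestational age was 130 to 135 days in controls, 132 to 133 in BAC and 131 to 136 in CEL.

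Hippocampus libraries held 18.3 to 29.3 M reads assigned to genes. Levels are given as CPM, the reads of a gene per 1 M reads of its library, after TMM scaling, which sets a gene's libraries side by side but does not correct for gene length, so levels are compared within a gene only. CTL212, BAC235 and BAC130 stood apart in some gene lists. Genes beyond all 14 other libraries were counted by list for these 3 libraries only. CTL092 had the highest thalamus list sum of the 15 libraries, 223 CPM. CTL212 had all 6 tested choroid plexus genes above the other 14 libraries, with a summed level of 1230 CPM against 13.1 to 32.7, led by CLIC6 at 421 CPM against at most 3.25. CTL212 also had 7 of 7 tested ependyma, 5 of 7 endothelium and mural and 4 of 7 meninges and fibroblast genes above the others. Of 12 tested immature neuron genes it had 7 below the others and 0 above. BAC235 had 6 of 9 tested intermediate progenitor and proneural genes and 10 of 13 cell cycle genes above the other 14, with INSM1 at 25.6 CPM against at most 4.5. It also had 6 of 9 tested genes of a cerebellum list above the others, among them LHX1 at 8.39 CPM against at most 0.95 and CBLN1 at 73.2 against at most 16. BAC130 had the lowest level of the 15 libraries in 6 of 13 cell cycle genes, and DSP was at 96.1 CPM there against at most 17.4. The granule neuron factor PROX1 and the pyramidal neuron factor NEUROD6 were counted in all 15 libraries.

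NES and NEUROD1 were the members called higher after the clinical drug in the fit of all 15 libraries, and both calls were lost with sequencing run as a term in the fit (edgeR adjusted p = 0.375 and 0.217). Of the 5 controls, 3 share no run with a treated animal, so that fit sets CEL against CTL113 and CTL212 alone. NES, which encodes the intermediate filament nestin of neural stem cells, was 1.55-fold higher than in controls, and NEUROD1, a proneural factor that drives progenitors to become neurons, was 2.27-fold higher. A gene was called when its fold change reached 1.5, its p lay below 0.05 and its adjusted p below 0.1 in edgeR's quasi-likelihood test. With 2 of 9 members called higher and 0 lower, the members stood beside 2.5% of all tested genes called higher and 5.35% called lower. The split of all genes was 435 higher and 931 lower with TMM scaling and 652 higher and 703 lower with upper quartile scaling, and NES and NEUROD1 were called higher with either. The median log2 fold change was 0.46 over the 9 members and -0.02 over all tested genes. In whole tissue, a change in the number of cells of a type and a change in RNA per cell cannot be told apart.

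**Figure D1:**
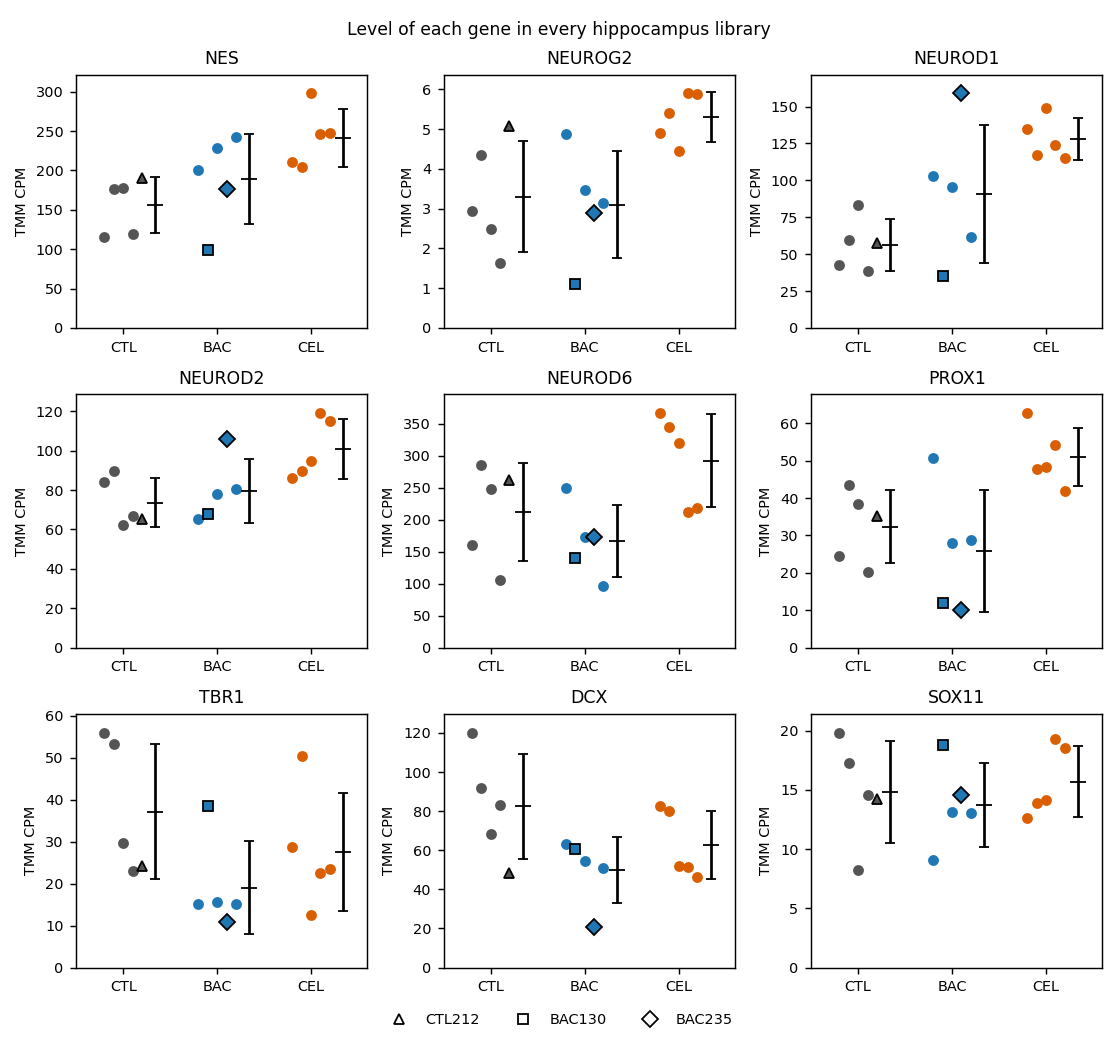
TMM-scaled CPM of the 9 genes in every hippocampus library, by group, with the mean and SD of the 5 libraries beside the points. The y axes start at 0, and outlined symbols mark CTL212, BAC130 and BAC235. For NES and NEUROD1 all 5 CEL libraries sit above all 5 controls, from 204 CPM and from 115 CPM upwards.

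NES stands for the start of the path in this list, though it was not confined to brain, with 98.7 to 214 CPM in lung. It was at 116, 176, 178, 119 and 190 CPM in CTL092, CTL101, CTL113, CTL209 and CTL212. In BAC128, BAC130, BAC136, BAC235 and BAC237 it was at 200, 99, 229, 176 and 242 CPM. In CEL115, CEL120, CEL126, CEL238 and CEL245 it was at 211, 204, 298, 246 and 247 CPM. Every CEL library lay above every control, while the BAC libraries spanned the controls, with BAC130 the lowest of all 15. The means were 156 ± 35.4, 189 ± 56.5 and 241 ± 37.4 CPM in CTL, BAC and CEL (SD, n = 5). The log2 fold change of CEL over control was 0.63 (standard error 0.21, edgeR adjusted p = 0.059), and it was 0.71 without CTL212 (adjusted p = 0.0488). The call was lost with run as a term (0.41, adjusted p = 0.375), and without CTL092 (adjusted p = 0.132), CTL209 (0.113) or CEL126 (0.134). The log2 fold change was 0.28 for BAC over control (adjusted p = 0.611) and 0.35 for CEL over BAC (adjusted p = 0.469, 95% interval -0.09 to 0.80).

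NEUROG2, which commits radial glia to the excitatory lineage, was at low levels throughout. In the order of libraries given for NES, the controls had 2.95, 4.36, 2.49, 1.63 and 5.08 CPM. The BAC libraries had 4.88, 1.11, 3.47, 2.9 and 3.15 CPM. The CEL libraries had 4.91, 5.4, 4.45, 5.9 and 5.88 CPM. The CEL libraries lay close together and above 4 of 5 controls, and CTL212 was the control that overlapped them. CEL over control gave 0.68 on the log2 scale (SE 0.33, edgeR adjusted p = 0.172), short of a call. Without CTL212 it was 0.89 (adjusted p = 0.0895), and NEUROG2 was then called, which made 3 of 9 members higher beside 2.83% of all tested genes. It was also called without BAC130 (adjusted p = 0.0934), whose level enters the shared estimate of the spread. For BAC over control the value was -0.09, and 0.12 without CTL212. For CEL over BAC it was 0.77 (edgeR unadjusted p = 0.0328, adjusted p = 0.326).

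NEUROD1 lies downstream of NEUROG2 and is made by intermediate progenitors and young granule neurons. The controls had 42.7, 59.7, 83.2, 38.6 and 57.9 CPM. In BAC the levels were 103, 35, 95.4, 159 and 61.9 CPM. In CEL the levels were 135, 117, 149, 124 and 115 CPM. Every CEL library again lay above every control, and BAC held both the lowest (BAC130) and the highest (BAC235) library of all 15. The means were 56.4 ± 17.6, 90.9 ± 46.8 and 128 ± 14.2 CPM in CTL, BAC and CEL (SD, n = 5). The log2 fold change of CEL over control was 1.18 (standard error 0.30, edgeR adjusted p = 0.0242), and without CTL212 it was 1.19 (adjusted p = 0.0331). No omission of 1 library removed this call, and run as a term did (0.86, adjusted p = 0.217), as did the fits within either run that held treated animals and in both of these runs with run as a term. For BAC over control it was 0.69 (edgeR unadjusted p = 0.0358, adjusted p = 0.373), which became 0.39 without BAC235 and 0.89 without BAC130. For CEL over BAC it was 0.49 (adjusted p = 0.475, 95% interval -0.14 to 1.13), and 0.79 without BAC235.

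Of all tested genes, 5.07% had every CEL library above every control, and NES and NEUROD1 were the 2 of 9 members that did. Without CTL212 NEUROG2 joined them, beside 7.45% of all tested genes.

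NEUROD2, a factor of maturing excitatory neurons, showed a smaller difference with a small error. In controls the levels were 84.2, 89.5, 62.1, 67 and 65.4 CPM. Levels in BAC were 65.4, 67.8, 78.1, 106 and 80.4 CPM. Levels in CEL were 86.3, 89.6, 94.5, 119 and 115 CPM. CTL101 lay above the lowest CEL library, CEL115, and the other 4 controls lay below all of CEL. CEL over control gave 0.46 on the log2 scale (SE 0.15, edgeR adjusted p = 0.0542), a fold of 1.37 that did not reach the required 1.5. It was 0.42 without CTL212 (adjusted p = 0.0927). For BAC over control it was 0.11, and -0.02 without BAC235.

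NEUROD6, a factor of pyramidal neurons, varied within each group. Levels in controls were 160, 286, 248, 106 and 263 CPM. BAC libraries stood at 250, 140, 174, 174 and 96.6 CPM. CEL libraries stood at 367, 345, 320, 211.5 and 218 CPM. CEL115, CEL120 and CEL126, all of sequencing run run1630, lay above all other libraries. CEL238 and CEL245, of run0164, lay within the range of the controls. The control was at 248 CPM beside a CEL mean of 344 in run1630, and at 263 beside 215 in run0164. The log2 fold change was 0.46 for CEL over control (edgeR adjusted p = 0.273) and -0.35 for BAC over control (adjusted p = 0.638). For CEL over BAC it was 0.81 (standard error 0.28, unadjusted p = 0.0102, adjusted p = 0.254).

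TBR1, which follows EOMES in postmitotic glutamatergic neurons, had negative log2 fold changes for both drugs against controls. Control libraries stood at 55.9, 53.2, 29.6, 23 and 24.1 CPM. The BAC libraries had 15.2, 38.6, 15.6, 10.8 and 15.1 CPM. The CEL libraries had 28.7, 50.4, 12.5, 22.6 and 23.4 CPM. All BAC libraries but BAC130 lay below every control, and CEL overlapped both groups. BAC over control gave a log2 difference of -0.96 (standard error 0.39, edgeR unadjusted p = 0.0259, adjusted p = 0.342), and -1.39 without BAC130 (adjusted p = 0.295). For CEL over control it was -0.43 (adjusted p = 0.477).

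PROX1 specifies dentate granule neurons and maintains their identity. The controls had 24.6, 43.5, 38.5, 20.3 and 35.1 CPM. In BAC the levels were 50.6, 11.9, 27.9, 10.1 and 28.7 CPM. In CEL the levels were 62.7, 47.7, 48.4, 54.1 and 42 CPM. CEL245 overlapped CTL101, the highest control, and BAC128 overlapped CEL. BAC130 and BAC235 were the lowest of all 15 libraries. CEL over control gave 0.65 on the log2 scale (SE 0.35, edgeR adjusted p = 0.213), short of a call. It was called when BAC was left out of the fit (0.66, adjusted p = 0.0414). For CEL over BAC it was 0.98 (standard error 0.35, unadjusted p = 0.0126, adjusted p = 0.263), the largest of the 9 members in that comparison, and it was 0.51 (adjusted p = 0.327) without CTL212, BAC130 and BAC235. The coefficient of variation was 63.2% in BAC, 29.9% in controls and 15.3% in CEL.

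DCX encodes doublecortin, the microtubule protein of migrating neuroblasts. In controls the levels were 120, 91.6, 68.5, 83.2 and 48.6 CPM. Levels in BAC were 63.2, 60.6, 54.5, 20.9 and 50.8 CPM. Levels in CEL were 82.8, 80.3, 51.8, 51.3 and 46.5 CPM. Every BAC library lay below 4 of 5 controls, CTL212 was the control that overlapped them, and BAC235 was the lowest of all 15. BAC over control gave a log2 difference of -0.72 (standard error 0.28, edgeR unadjusted p = 0.0214, adjusted p = 0.328). Without CTL212 it was -0.86 (adjusted p = 0.212). Without CTL212 DCX was the single member with every BAC library below every control, as were 2.59% of all tested genes. For CEL over control the value was -0.40 (adjusted p = 0.356).

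SOX11, a factor of newly formed neurons that acts on the DCX gene, had overlapping groups. Levels in controls were 19.8, 17.3, 8.22, 14.6 and 14.2 CPM. BAC libraries stood at 9.06, 18.8, 13.1, 14.6 and 13 CPM. CEL libraries stood at 12.6, 13.9, 14.1, 19.3 and 18.5 CPM. Its log2 fold change was 0.08 for CEL over control (edgeR adjusted p = 0.836, 95% interval -0.39 to 0.55) and -0.11 for BAC over control (adjusted p = 0.875).

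**Figure D2:**
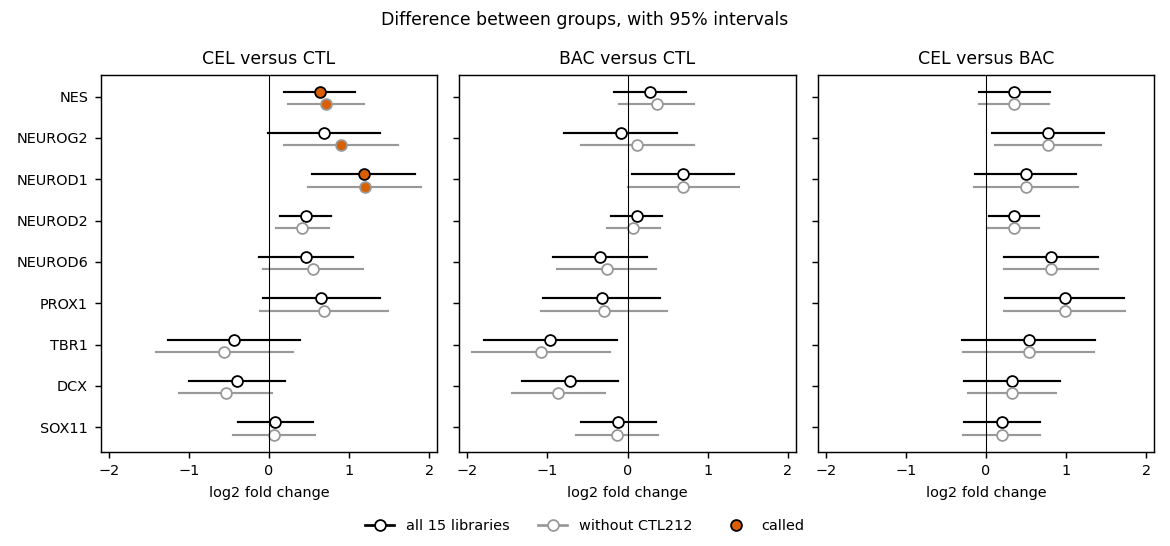
Log2 fold change of each gene (x axis) with its 95% interval in the 3 comparisons, for all 15 libraries (black) and without CTL212 (grey). Filled points were called, and open points were not. NES and NEUROD1 are filled in CEL versus CTL with either set, and NEUROG2 is filled there only without CTL212.

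For Beta-Ac 0 of 9 members were called against controls, and 0 of 17390 genes (0%), by edgeR. Without adjustment, 2133 genes (12.3%) had p under 0.05, among them the members NEUROD1, TBR1 and DCX. DESeq2 called 149 of 17390 genes in this comparison and 0 members. Without BAC128 edgeR called 184 of 17316 genes and 0 members. At such small shares 0 of 9 says nothing particular about the members. The log2 fold change was positive in 3 of 9 members and in 8433 of the 17390 tested genes, with medians of -0.11 and -0.01.

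Compared directly, CEL and BAC differed in 0 called members and 0 called genes (0%) by edgeR. Without adjustment, 2346 genes (13.5%) had p under 0.05, among them NEUROG2, NEUROD2, NEUROD6 and PROX1. DESeq2 called 186 genes (1.07%), including NEUROD6 (log2 fold change 0.81, adjusted p = 0.0919) and PROX1 (0.99, adjusted p = 0.0943). All 9 members had a positive log2 fold change of CEL over BAC, as did 8618 of the 17390 tested genes. The median was 0.49 over the members and -0.003 over all tested genes. The same control libraries enter both comparisons with control, so the calls for NES and NEUROD1 after the clinical drug and their absence after Beta-Ac do not show that the drugs differed in these genes. The direct intervals given for these genes included 0.

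**Figure D3:**
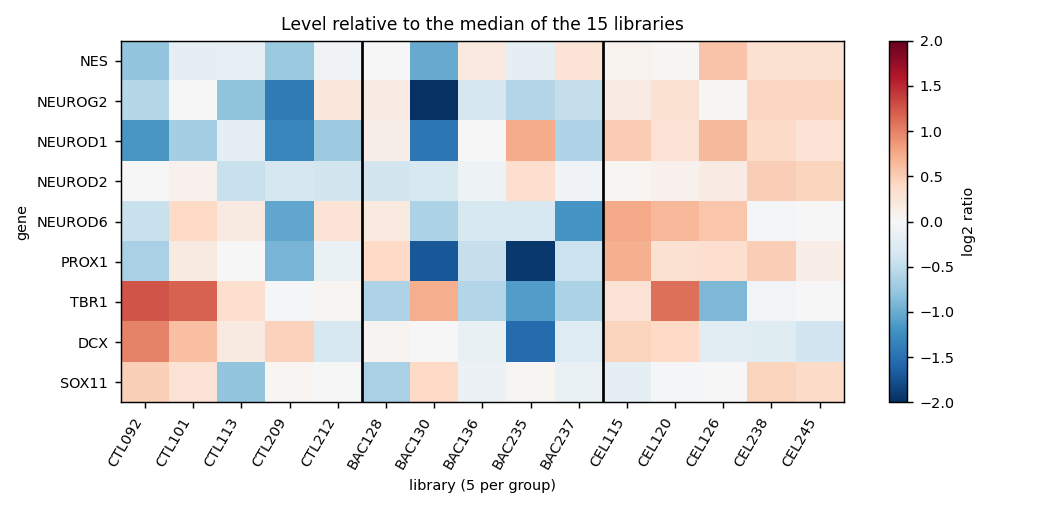
Log2 ratio of each gene's CPM to its median over the 15 libraries, with libraries in columns, separated by group, and genes in rows. The darkest blue cells are in BAC130 and BAC235, and the CEL columns are mostly red in the rows from NES to PROX1.

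The members did not move as a block within the groups. BAC235 had the highest NEUROD1 of the 15 libraries, 159 CPM, together with the lowest PROX1, TBR1 and DCX. BAC130 had the lowest NES, NEUROG2 and NEUROD1 and the highest TBR1 of its group. CTL092 had the highest TBR1, DCX and SOX11 of the 15. In CEL115 and CEL120, 8 of 9 members lay above the median of the 15 libraries, and in BAC136 and BAC237 1 of 9 did. The median coefficient of variation over the members was 31.1% in controls, 34% in BAC and 15.5% in CEL, beside 18.2, 22 and 15.3% over all tested genes. The part of choroid plexus, ependyma, immature neuron, cerebellum and cell cycle signal of CTL212, BAC130 and BAC235 in these values was not tested. Without these 3 libraries, a choice made after seeing the data, 4 of 9 members were called higher in CEL against controls, beside 3.51% of all tested genes. These were NES (log2 fold change 0.72, edgeR adjusted p = 0.0094), NEUROG2 (0.90, adjusted p = 0.0245), NEUROD1 (adjusted p = 0.00639) and PROX1 (0.69, adjusted p = 0.0576). In the same setting 0 members and 0 of 17358 genes were called for BAC against controls.

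The libraries came from 4 sequencing runs. CTL092 and CTL101 shared a run, and CTL209 had another, with no treated animal in either. The remaining runs, run1630 and run0164, held all treated animals with 1 control each, CTL113 and CTL212. In run1630 NEUROD1 was at 83.2 CPM in the control, 77.9 on average in 3 BAC libraries and 134 in 3 CEL libraries. In run0164 it was at 57.9 CPM in the control, 110 on average in 2 BAC libraries and 120 in 2 CEL libraries. The lone control lay below every CEL library of its run for NES, NEUROG2, NEUROD1, NEUROD2, PROX1 and SOX11 in both runs, 6 of 9 members, beside 19% of all tested genes.

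With run as a term in the fit, the difference from controls rests on CTL113 and CTL212 alone, and this fit was not repeated without CTL212. The calls of NES and NEUROD1 were lost there. NEUROD2 was called, with 0.68 (edgeR adjusted p = 0.0531), and it was the 1 member called, beside 0.788% of all tested genes called higher. Within run1630 alone the values were 0.41 for NES, 0.68 for NEUROD1 and 0.53 for NEUROD2, and within run0164 alone they were 0.39, 1.06 and 0.86. None of these passed, with a single control in each run. For DCX the value was -0.40 in the pooled fit and 0.03 with run as a term. CEL and BAC were balanced over the runs. In run1630 every CEL library lay above every BAC library for NEUROD1, NEUROD2 and NEUROD6, beside 6.38% of all tested genes, and in run0164 for 7 of 9 members, all but NEUROD1 and DCX, beside 24.4%. NEUROD2 and NEUROD6 were so ordered in both runs, beside 3.82%.

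**Figure D4:**
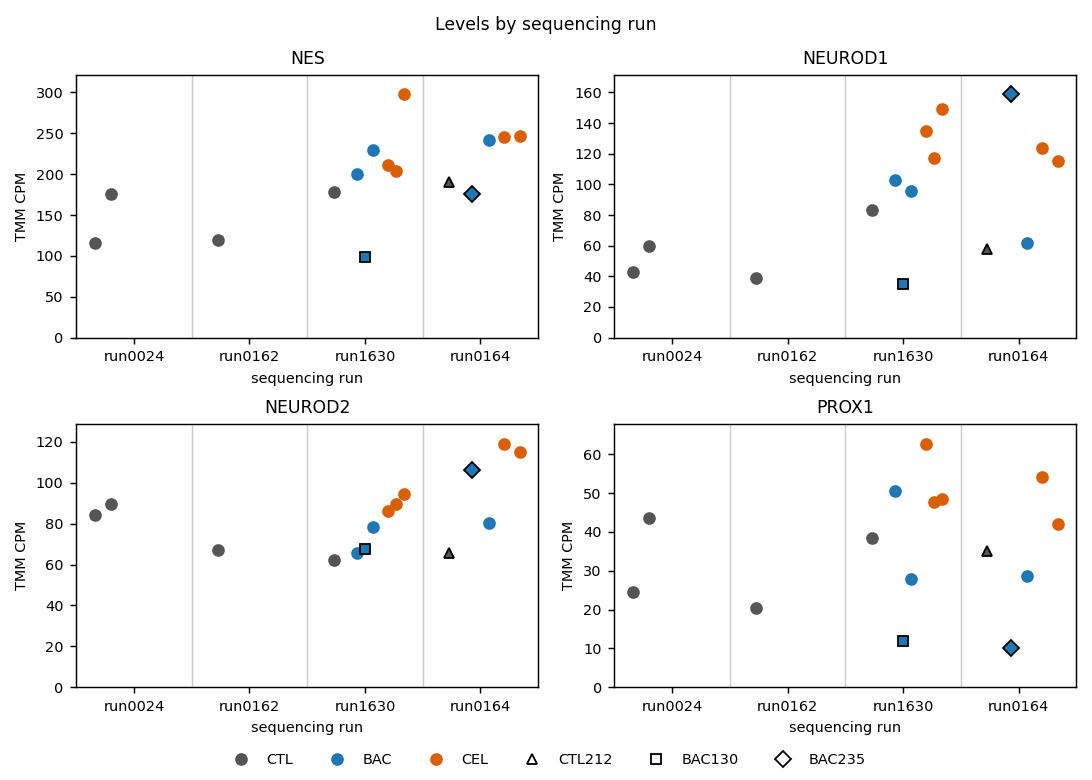
TMM-scaled CPM of NES, NEUROD1, NEUROD2 and PROX1 by sequencing run, with groups side by side within each run. Runs run0024 and run0162 hold controls only, and run1630 and run0164 hold 1 control each. In both shared runs the control lies below every CEL library for all 4 genes.

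Other genes of the same path were read from lists of known markers. Among 12 tested genes of radial glia and neural stem cells, HOPX (log2 fold change 0.60, edgeR adjusted p = 0.0205), an outer radial glia marker, and ID4 (0.65, adjusted p = 0.0172), an inhibitor of proneural factors, rose in CEL against controls, and 0 fell. The median of this list was 0.28. Of 9 tested intermediate progenitor and proneural genes 0 were called, with a median of 0.20, and TFAP2C was called as higher without CTL212 (0.64, adjusted p = 0.0883). Of 8 tested inhibitors and partners of the proneural factors 0 were called, although HEY1 (0.44, adjusted p = 0.018) and TCF4 (0.53, adjusted p = 0.022) passed the p threshold below the required fold. Of 12 tested immature neuron genes CALB2, which encodes the calretinin of young granule neurons and interneurons, fell by 1.48 on the log2 scale (adjusted p = 0.0175), and the list's median was 0.02. Of 15 tested dentate granule genes 0 were called, with a median of 0.08 that was -0.11 without CTL212. Among 13 cell cycle genes CDK1 rose (0.80, edgeR adjusted p = 0.081), and the median was -0.15. CCND1 was also called as higher without CTL212 (0.60, adjusted p = 0.0526). BAC over control gave 0.67 for ID4, 0.46 for HEY1, 0.85 for CDK1, 0.30 for HOPX and 0.06 for TCF4, none called. CEL over BAC gave -0.02, -0.02, -0.05, 0.29 and 0.47 in that order, none called. The values in CEL against controls do not show that the drugs differed in these genes.

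Lists of other cell types and regions also held called genes in this comparison, beside the 2.5% of all tested genes called higher and 5.35% called lower. The astrocyte genes AQP4 and SPARCL1 rose, 2 of 7 tested, SLC1A2 was also called as higher without CTL212, and the astrocyte list summed to 3190 to 5270 CPM in controls and 4880 to 6100 in CEL. The microglia genes P2RY12 and C1QC rose, 2 of 4 tested. In the meninges and fibroblast list 4 of 7 tested genes fell, led by DCN and COL3A1 in order of p, and 1 of these calls held without CTL212. This list summed to 340 to 1330 CPM in controls and 322 to 517 in CEL. PDGFRA, which is also in the oligodendrocyte lineage list, was at 228 to 323 CPM of this sum in controls and 262 to 358 in CEL. Of the choroid plexus list 5 of 6 genes fell, led by CLIC6 and SLC4A5 in order of p, and without CTL212 1 fell and 1 rose. Of the cerebellum list 1 of 9 tested genes fell, RELN, which encodes the secreted protein reelin and is also made by Cajal-Retzius cells of the hippocampus (-0.79, edgeR adjusted p = 0.0373, and -0.87 without CTL212, adjusted p = 0.0289). The cerebellum list summed to 563 to 772 CPM in controls, 392 to 847 in BAC and 322 to 434 in CEL, so every CEL library lay below every control. RELN was the largest part of this sum in controls and CEL, at 358 to 645 and 189 to 323 CPM, and LHX1 was at most 0.4 CPM in both. RELN itself was lower in every CEL library than in every control, as were 10% of all tested genes. The pyramidal and cortical genes CUX1 and CUX2 fell, as did RGS9 and PDE10A of the striatum list, VWF of 7 endothelium and mural genes and CALB2 of 8 thalamus genes, and EGR2 rose among 7 immediate early genes. The calls of CUX2, VWF and EGR2 were lost without CTL212. The interneuron, ependyma, oligodendrocyte lineage, blood and glucocorticoid target lists had 0 calls with all 15 libraries, and without CTL212 the interneuron gene NPY was called as lower (-0.61, adjusted p = 0.0431). The part of these cell types in the levels of the members was not tested. In BAC against controls and in CEL against BAC 0 genes of these lists were called by edgeR.

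Gestational age differed by up to 6 days between animals, so a slope per day was fitted beside the groups. No gene had an adjusted p under 0.1 (0%, edgeR), while 2638 genes (15.2%) had an unadjusted p under 0.05. NEUROG2 changed by -0.17 per day on the log2 scale (unadjusted p = 0.0382, adjusted p = 0.303) and NEUROD2 by -0.08 (unadjusted p = 0.0485, adjusted p = 0.326). The other 7 members had slopes between -0.10 and 0.12 per day. Without CTL212 the slope was -0.14 for NEUROG2 (unadjusted p = 0.125, adjusted p = 0.597), -0.12 for NEUROD2 (unadjusted p = 0.00344, adjusted p = 0.424) and -0.14 for SOX11 (unadjusted p = 0.0477, adjusted p = 0.49). Without CTL101 96 of 17316 genes and 0 members had an adjusted p under 0.1. With age in the fit NES and NEUROD1 were called in CEL against controls at 0.65 and 1.18, and NEUROG2 was also called, at 0.81 (edgeR adjusted p = 0.0807), beside 2.6% of all tested genes called higher.

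The lung libraries of the series gave the members' levels outside the brain, in 5 groups of 3 fetuses given saline, the clinical drug 4 h or 5 days before delivery, or Beta-Ac 6 h or 5 days before delivery. These are descriptions without a test. NES was counted in all 15 lung libraries at 98.7 to 214 CPM. NEUROD1 and NEUROD2 were listed at 0 reads in all 15. NEUROG2, TBR1 and DCX had at most 0.25 CPM in any lung library, with 18, 11 and 14 reads over all of them. NEUROD6 was at 0.59 to 3.91 CPM. PROX1, which also specifies lymphatic endothelium, was at 0.62 to 2.37 CPM. SOX11 was not matched in the lung table.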

How the data were processed

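RNA of fetal hippocampus and lung was sequenced from 15 animals each, and 9 animals gave both tissues. The deposited values are whole-number counts of reads per Ensembl gene, without a filter or normalization. By the study's methods, 75 bp paired-end reads were aligned with Bowtie 2 and counted with featureCounts. The sample records name Bowtie 1.2.1.1 and featureCounts 1.5.1, and also Bowtie 2 without a version, so more than 1 aligner is named in the series. The study's methods name a single rhesus build, MMUL1.0, in a passage on lung RNA. The hippocampus table holds other identifiers than the lung table (20572 in common), so whether that build applies to it is not certain and no coordinates are given. Symbols came from an Ensembl table and matched 54.4% of hippocampus rows.

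Counts were scaled by TMM and tested with edgeR 4.0.16 in R 4.3.3 (glmQLFit and glmQLFTest) in a single fit of all 15 hippocampus libraries, with Benjamini-Hochberg adjustment over all genes that reached 7 reads in 5 or more libraries. Intervals are 95% intervals of that fit. DESeq2 1.42.0 and the other alternatives are given in the closing section. The procedure was tested on simulated data. Libraries are separate animals, and p-values set the group differences against the spread between animals, estimated over the 3 groups together. Without run as a term, any differences between runs are part of that spread and of the differences from controls. Members and lists were chosen with earlier results of these data known, and the cerebellum list and the omission of 3 libraries together after seeing the levels. All members are named, and of other lists the called genes, up to 3, otherwise the 2 of smallest p in each direction. Further list genes with values, such as HEY1 and TCF4, were chosen after their values were seen. Lung counts were scaled in the same way and not tested.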

Additional observations from a re-analysis of the deposited data

Results flagged for a closer look

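TBR1 in BAC130, at 38.6 CPM, lay far from the other 4 BAC libraries, which had 10.8 to 15.6 CPM. Its gap to the nearest of them was 0.829 of the group's whole range, above Dixon's limit for 5 samples. In all 27 combinations of 9 genes and 3 groups were checked and 1 passed, and chance alone passes about 1 in 20. BAC130 also had the lowest NES, NEUROG2 and NEUROD1 of the 15 libraries.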

How the results depend on the processing

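Alternatives were the RLE and upper quartile scalings, no filter, filterByExpr, Storey's q, DESeq2, a fit of the 2 groups compared, run or gestational day as a term, fits within runs, the 3 animals a group that also gave lung, each library left out, and CTL212, BAC130 and BAC235 left out together, the last chosen after seeing the data. Of the 783 alternative fold changes of the members 734 kept their direction and their side of the threshold. Most of these were not called in the main fit and stayed so. The calls in CEL against controls were lost in 8 of 29 alternatives for NES and in 4 of 29 for NEUROD1.

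Of CEL against controls, members called were 1 with run as a term, 0 within run1630, 0 within run0164, 1 in both runs with run as a term, 1 in the animals that also gave lung and 4 without the 3 libraries, and 1 to 3 with each library left out. Genes called were 1 within run1630, 561 within run0164 and 596 in both runs with run as a term. Within run1630 and run0164 each fit has a single control, assumed to vary like the other groups. Directions turned with run as a term for DCX (0.029), within run1630 for TBR1 (0.034) and DCX (0.056), within run0164 for NEUROD6 (-0.276) and DCX (0.025), in both runs with run as a term for DCX (0.05) and in the lung animals for SOX11 (-0.158). With each library left out SOX11 ranged from -0.072 to 0.206.

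Of BAC against controls, genes called were 1 with Storey's q, 149 with DESeq2, 332 within run0164 and 0 to 184 with each library left out. Directions turned with run as a term for SOX11 (0.364), and in both runs with that term (0.393). They turned within run1630 for NES (-0.017), NEUROG2 (0.344), NEUROD1 (-0.096) and SOX11 (0.728), and in the lung animals for NEUROD2 (-0.152). Without the 3 libraries they turned for NEUROG2 (0.433), NEUROD2 (-0.015) and PROX1 (0.177). With each library left out NEUROG2 ranged from -0.312 to 0.124, NEUROD2 from -0.015 to 0.192 and SOX11 from -0.267 to 0.011.

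Of CEL against BAC, DESeq2 called 186 genes (1.07%) and 2 members. Run as a term gave 13 genes, and both runs with that term gave 2. SOX11 turned within run1630 (-0.018) and in the lung animals (-0.017). Genes with a slope on gestational day numbered 0 to 96 with each library left out. Slopes turned with run as a term for NEUROD2 (0.005), PROX1 (-0.038) and TBR1 (-0.041). With each library left out they ranged from -0.069 to 0.04 for NEUROD1, from -0.064 to 0.061 for NEUROD6, from -0.044 to 0.055 for PROX1 and from -0.036 to 0.086 for TBR1. The cause of these changes was not tested. The fits within runs and in the lung animals also hold fewer libraries. Lung levels without scaling factors moved by less than 1 SD. No paired analysis was possible because the hippocampus groups share no replicate numbers.

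With 5 animals a group, an interval that includes 0 does not show that the groups were alike. NEUROG2, with the fewest reads, also carries counting error, and 3 of 5 controls share no run with a treated animal, so for them run and group cannot be told apart.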
